A study of Mus musculus with 16 samples.

Results

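Immunoglobulin is both the antigen receptor of B cells and the product that plasma cells secrete. Each B cell precursor joins variable, diversity and joining segments into 1 heavy chain gene and then joins variable and joining segments into a kappa or lambda light chain gene, so that a B cell and its descendants express 1 pair of variable segments. The heavy chain is first made as IgM, and class switching later places the same variable region on an IgG, IgA or IgE constant region. The J chain, a small protein encoded outside the immunoglobulin loci, links IgM and IgA into polymers. A spleen therefore holds transcripts of many variable segments, whereas a clone carries few.

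The probe sets described here are those whose platform annotation names at least 1 immunoglobulin heavy, kappa or lambda gene or Jchain, and 52 of the 45101 probe sets of the array met this rule. Of these, 39 were annotated to 1 gene and 13 to several, and together they named 27 genes. The annotation gave 11 probe sets to Ighm (the μ heavy chain), 3 to Igha (the α chain), 4 to Ighg3 (a γ chain) and 1 to Jchain. Of the 25 probe sets annotated to variable segments alone, 19 exceeded an intensity of 100 on at least 1 array, and 10 of the 52 probe sets never did. No probe set was annotated singly to Ighd, Ighg1, Ighg2b, Ighg2c, Ighe or Igkc. RefSeq names 183 Ighv, 162 Igkv and 3 Iglv genes, and the probe sets covered 2, 17 and 1 of them, so that most variable segments were not measured. The suffixes _s_at and _x_at mark probes shared with other transcripts, and 21 of the 52 probe sets carried one of them. An intensity on such a probe set is therefore the signal of whatever related transcripts bind it.

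The study asked what enforced expression of spliced XBP-1, the transcription factor of plasma cell differentiation, does to B cells. RNA was hybridised to Affymetrix mouse expression arrays from B220+ splenic B cells of 5 nontransgenic mice of 20 weeks, from B220+ splenic B cells of 5 Eμ-xbp-1s mice of 20 weeks, and from 6 Eμ-xbp-1s myeloma samples (Eμ-xbp-1s MM). The transgene placed mouse xbp-1s complementary DNA, followed by an internal ribosome entry site and eGFP, under a VH promoter and the Eμ enhancer, on a C57BL/6 background, and the enhancer can also be active in T cells. Which founder line each array came from, and whether the 6 MM samples came from separate mice, was not given in the labels. The tissue, cell selection and age of the MM samples were not given there either, so that they cannot be told apart from the tumour state. All p-values below rest on the spread among these samples alone, which may be partly technical.

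The intensities were comparable in overall level, with array medians between 69.04 and 82.86, and the highest intensity of an array was 10591 to 13035. From 4 to 6 of the 20 brightest probe sets of each Eμ-xbp-1s B cell array were immunoglobulin probe sets, against 4 on each nontransgenic array and 0 to 5 in MM. Over probe sets above 100 on more than 20% of all arrays, the nontransgenic arrays split into replicates 1 and 2 and replicates 3 to 5. The SD of their log2 differences was 0.405 to 0.491 across these parts and 0.276 at most within them. In Eμ-xbp-1s B cells the ranges overlapped, at 0.595 to 0.807 across and 0.415 to 0.616 within replicates 3 to 5. Eμ-xbp-1s replicates 1 and 2 differed on the immunoglobulin probe sets by an SD of 0.118 in log2 intensity, against 0.611 to 1.13 for the other pairs of that group and 0.425 to 0.897 for nontransgenic pairs. They are kept as 2 samples here, and the results with their average are given beside the counts that this changed. Mature B cell markers summed to 34507 to 37362 in nontransgenic, 16829 to 29660 in Eμ-xbp-1s and 1851 to 17465 in MM samples. Neutrophil markers summed to 675 to 1466, 8966 to 27512 and 573 to 60551 in the same order. T cell markers summed to 639 to 763, 5026 to 6225 and 582 to 4045, and stroma markers to 255 to 401, 256 to 398 and 4437 to 11563. Macrophage markers summed to 2278 to 3782, 5984 to 11304 and 6145 to 23617. Plasma cell markers, Jchain among them, summed to 8013 to 9706, 8479 to 12616 and 3468 to 13604. Of 6 plasma cell markers tested in MM by limma, 0 passed against Eμ-xbp-1s B cells, and 1, Irf4, was lower against nontransgenic B cells. In such mixtures fewer B cells and less immunoglobulin RNA per cell cannot be told apart.

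In B cells with enforced XBP-1s no immunoglobulin probe set was called changed. Of the 38 that passed the filter on low values (an intensity over 100 in more than 20% of the samples of the 2 groups together), 0 were called higher and 0 lower in Eμ-xbp-1s than in nontransgenic B cells by limma at an adjusted p under 0.01. Over all 20596 probe sets tested, 2.75% were called higher and 0.481% lower. Before adjustment, 3 of the 38 were higher and 4 lower (p under 0.05 in limma), and the share over all probe sets at that p was not computed. The median log2 fold change was 0.03, against -0.05 over all probe sets tested.

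Jchain measured 5272, 5280, 5188, 4564 and 6065 in nontransgenic replicates 1 to 5. In Eμ-xbp-1s B cells it measured 5341, 5532, 7242, 5452 and 7802. The groups overlapped, with replicates 3 and 5 of the transgenic group above every nontransgenic sample (adjusted p = 0.411).

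The brighter Ighm probe sets, 1427329_a_at and 1427351_s_at, lay between 9978 and 12951 in nontransgenic samples and between 9690 and 12719 in those of Eμ-xbp-1s mice. These values were 84.5% to 100% of the highest intensity on the same array. At that height a further rise of the transcript may not be seen, so that the match of the groups is a match within the range of the array. The 3 probe sets annotated to several kappa genes, the constant region among them, measured 5800 to 13035 in nontransgenic and 5452 to 12480 in Eμ-xbp-1s B cells, and the groups overlapped on each.

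In nontransgenic B cells the 3 Igha probe sets followed the split of the arrays. Probe set 1425763_x_at measured 5494 and 4375 in nontransgenic replicates 1 and 2 but 2110, 2051 and 2505 in replicates 3 to 5. It measured 3934, 3899, 3537, 3512 and 6096 in Eμ-xbp-1s replicates 1 to 5. On the log2 scale the transgenic mean was 0.32 below the nontransgenic mean within replicates 1 and 2 (a difference of -0.324) and above it by 0.935 within replicates 3 to 5. The direction thus turned between the 2 parts of the arrays, and it did so for the other 2 Igha probe sets.

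Probe set 1427576_at, annotated to several Igkv genes, came nearest to a call. It measured 685, 793, 644, 786 and 681 in nontransgenic and 1220, 1384, 1892, 881 and 1160 in Eμ-xbp-1s B cells, so that every transgenic value lay above every nontransgenic one. The log2 fold change was 0.82 ± 0.18 (SE), with an adjusted p of 0.0182 in limma, above the threshold. For its neighbour 1427577_x_at, of the same annotation, the change was 0.83 ± 0.22 on the same scale (adjusted p = 0.0382). Both passed with the split of the arrays as a block, and without Eμ-xbp-1s replicate 4, in each case as the 2 probe sets called higher. Another probe set of the same annotation, 1451965_at, did not move with them, at -0.14 ± 0.34 (adjusted p = 0.867 in limma). It measured 1221 and 800 on Eμ-xbp-1s replicates 3 and 4, below the nontransgenic range of 1628 to 2755.

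Ighv14-2, the heavy chain variable segment with a probe set of its own, lay in the other direction. It measured 5468, 5617, 5397, 4903 and 5783 in nontransgenic and 4288, 4196, 1774, 3202 and 3831 in Eμ-xbp-1s B cells. The groups did not overlap, but the log2 fold change of -0.72 ± 0.22 did not pass in limma (adjusted p = 0.0770). The neutrophil and T cell marker sums given above were unequal between the groups, and their part in these differences was not tested.

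**Figure D1:**
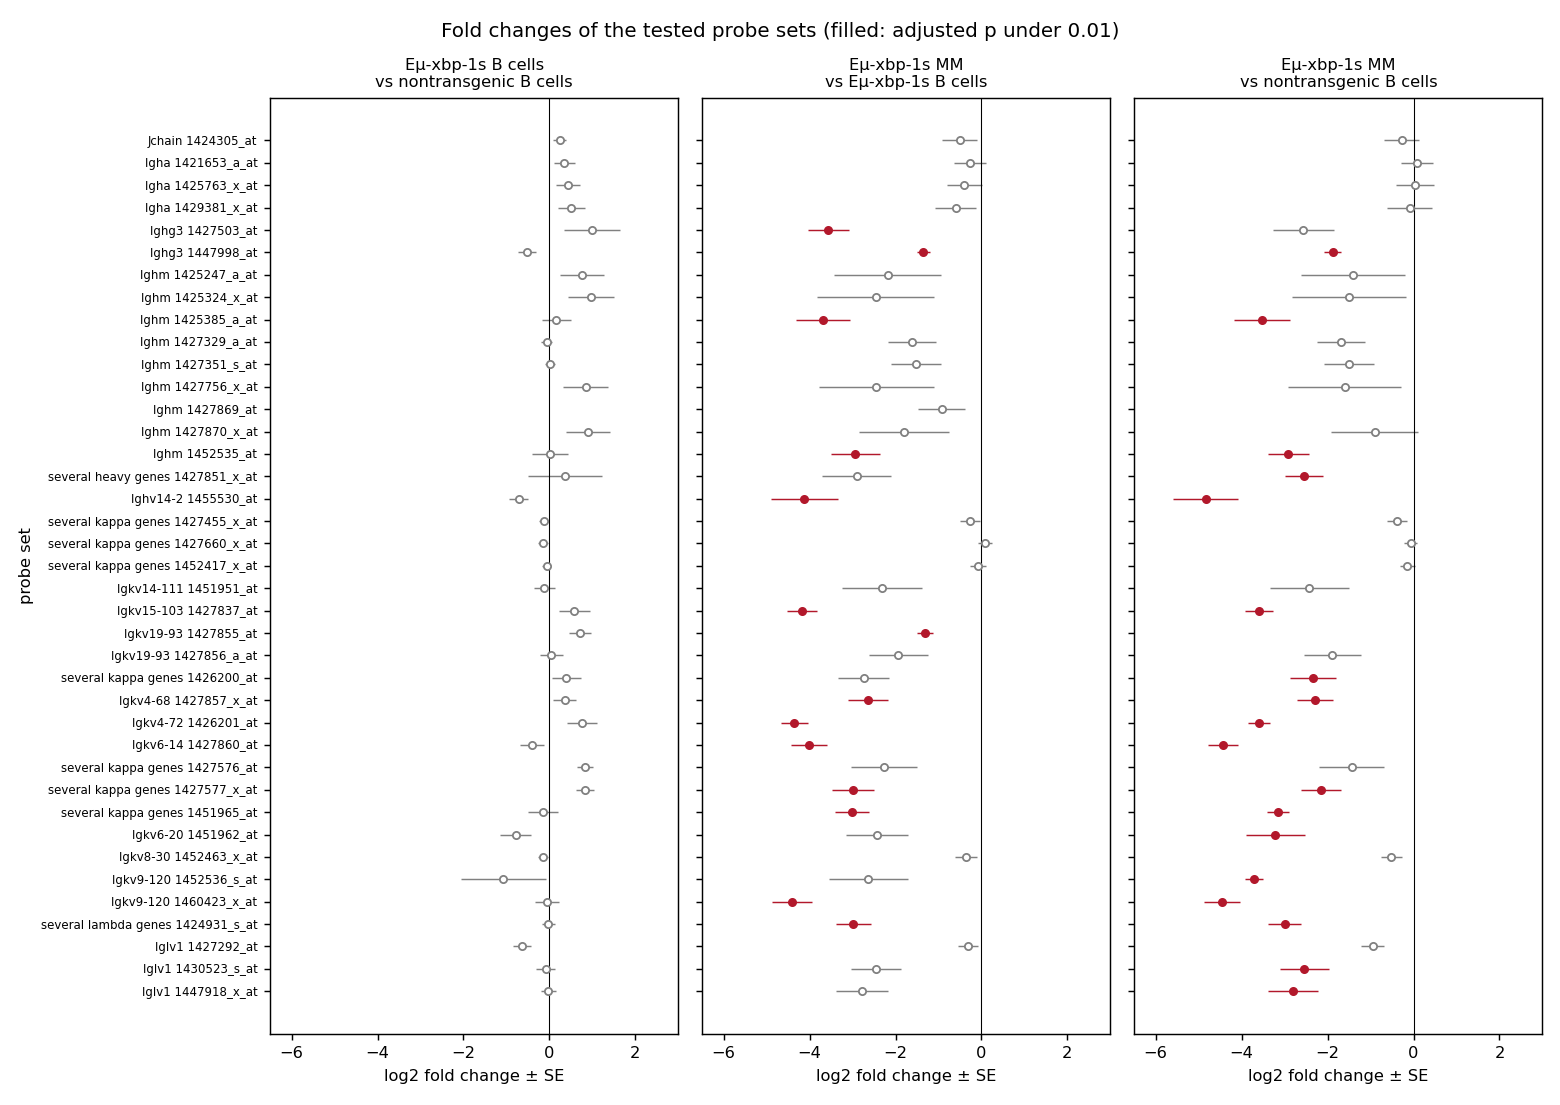
Log2 fold change with its SE for each tested immunoglobulin probe set in the 3 comparisons, filled where the adjusted p was under 0.01. No probe set passed between the B cell groups, 14 were lower in Eμ-xbp-1s MM than in Eμ-xbp-1s B cells, and 18 were lower in MM than in nontransgenic B cells.

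In Eμ-xbp-1s MM a part of the measured variable segments was lower than in B cells, while the kappa probe sets that include the constant region, Igha and Jchain were not called changed. Of the probe sets annotated to variable segments alone, 9 of 19 tested were called lower against Eμ-xbp-1s B cells and 13 of 18 against nontransgenic B cells. Of 39 tested probe sets, 14 were called lower and 0 higher in MM than in Eμ-xbp-1s B cells, and the 14 are 35.9% of those tested. Over all 22194 probe sets tested, 1.91% were called lower and 1.28% higher at the same threshold. At an unadjusted p under 0.05 in limma, 25 of the 39 were lower and 0 higher. The share over all probe sets at that unadjusted p was not computed. The median log2 fold change of the 39 was -2.43, against 0.00 over all. With Eμ-xbp-1s replicates 1 and 2 averaged, which was chosen after seeing the data, 9 were lower. Leaving out Eμ-xbp-1s B cell replicate 1, 2 or 5 also gave 9, and B cell replicates 3 to 5 alone gave 6. Over all probe sets tested, lower calls fell as well, from 423 to 150 with the average and to 151, 152 and 198 without these replicates. With replicates 3 to 5 alone they fell to 95 of 23373.

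Against nontransgenic B cells, 18 of 37 tested probe sets, or 48.6%, were called lower in MM and 0 higher. Over all 21894 probe sets tested, 5.65% were called lower and 3.95% higher at the same threshold. At an unadjusted p under 0.05 in limma, 24 of the 37 were lower and 0 higher, again without a share over all probe sets. The median was -2.15, against -0.03 over all. Leaving out nontransgenic replicate 2 or 4 gave 12, and B cell replicates 3 to 5 alone gave 8. Over all probe sets tested, lower calls fell from 1236 to 649 and 640 without these replicates, and to 309 with replicates 3 to 5 alone. Both comparisons use the same 6 MM samples, so that they are not separate evidence. The filter on low values passes a probe set on the strength of the group in which it is bright, and 13 and 15 of the 52 probe sets did not pass it in these comparisons.

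Kappa variable segments made up 8 of the 14 probe sets called lower against Eμ-xbp-1s B cells. Igkv4-72 measured 1532, 1425, 1739, 472 and 1078 in Eμ-xbp-1s B cells, and 13.3, 9.62, 51.4, 92.6, 35.2 and 12.6 in MM replicates 1 to 6. Each MM value lay below each B cell value, and 4 of the 6 lay under the floor of 50 that was applied before taking logarithms, so that the fitted fold is a low estimate. The log2 fold change was -4.36 ± 0.32 (SE, adjusted p = 2.23e-05 in limma).

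Igkv9-120, by probe set 1460423_x_at, fell from 2770 ± 1072 in Eμ-xbp-1s B cells (SD, n = 5) to 146 ± 107 in MM (SD, n = 6), with a log2 fold change of -4.40 ± 0.46 (adjusted p = 2.79e-04 in limma). Igkv6-14 fell from 2346 ± 966 to 146 ± 76.1, a log2 fold change of -4.02 ± 0.42 (adjusted p = 2.79e-04). Igkv15-103 fell from 1362 ± 551 to 67.2 ± 39.9, a log2 fold change of -4.18 ± 0.35 (adjusted p = 5.77e-05). These 3 and Igkv4-72 were the probe sets that passed in all 25 alternatives tried against Eμ-xbp-1s B cells, and they passed in all 24 against nontransgenic B cells. Igkv9-120 by 1452536_s_at changed by -2.64 ± 0.92 and was not called against Eμ-xbp-1s B cells (adjusted p = 0.0881 in limma). It was called lower against nontransgenic B cells (adjusted p = 9.79e-07).

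These segments lie far apart in the kappa locus. In the order of the 162 Igkv genes in RefSeq, Igkv9-120 is number 20, Igkv15-103 number 39, Igkv4-72 number 80 and Igkv6-14 number 148. Segments of low order and of high order were thus both among those that fell.

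The other probe sets called lower against Eμ-xbp-1s B cells were weaker under the alternatives. Igkv4-68, by 1427857_x_at, changed by -2.65 ± 0.46 on the log2 scale (limma, adjusted p = 0.00482) and lost its call in 11 of 25. Ighv14-2 fell from 3458 ± 1034 to 429 ± 638, by -4.12 ± 0.77 on the log2 scale (adjusted p = 0.00691), but lost its call in 15 of 25. Among the MM samples it measured 72.9, 87.9, 1684, 167, 48.5 and 512, with replicate 3 far above the rest and just under the lowest Eμ-xbp-1s B cell value of 1774. Igkv19-93 by its dimmer probe set 1427855_at and Ighg3 by 1447998_at were at or under the floor on 5 of 6 MM arrays, so that the fitted log2 fold changes of -1.32 and -1.36 understate the difference.

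**Figure D2:**
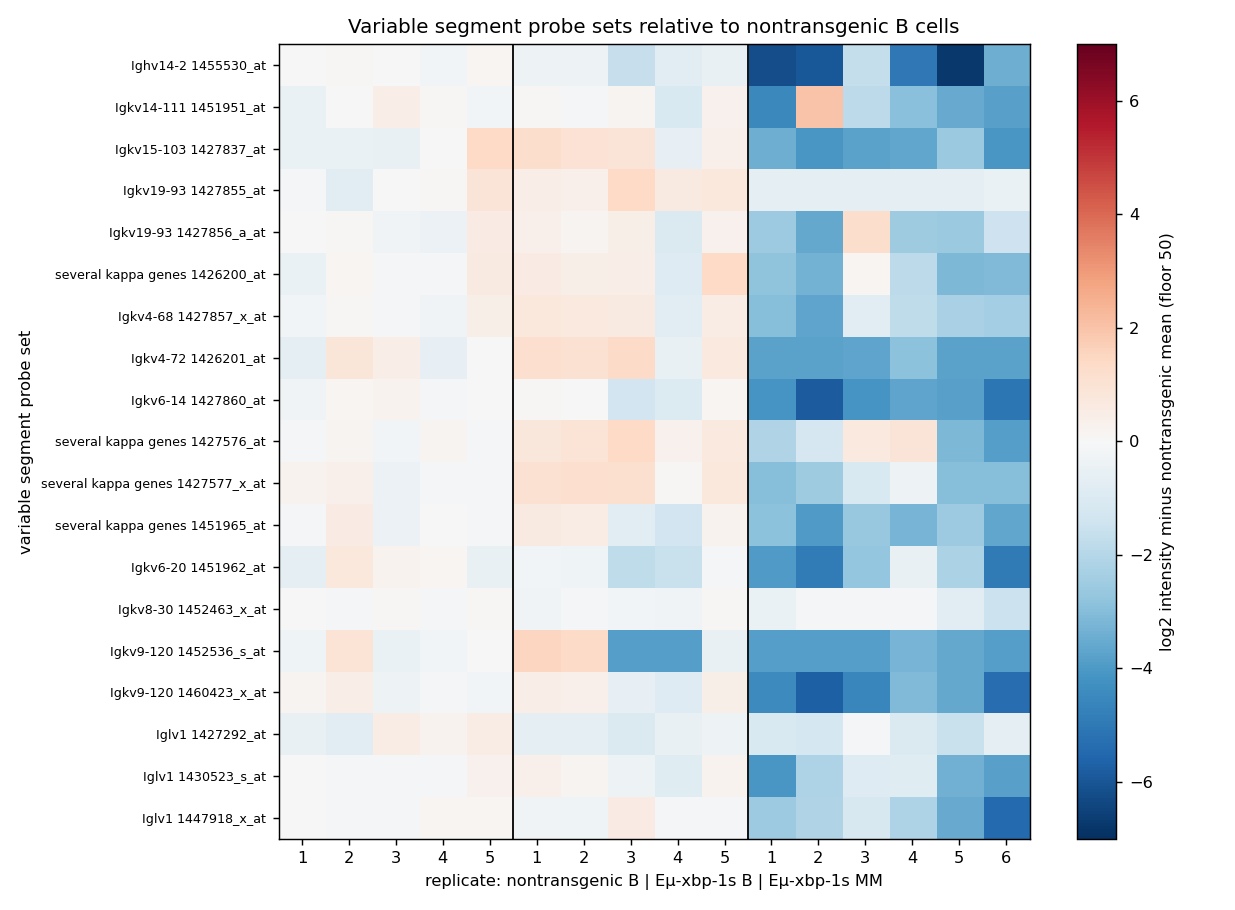
Log2 intensity of the 19 variable segment probe sets on each array minus the nontransgenic mean, with values under 50 set to 50. Between 7 and 16 of the 19 were at least 4-fold below the nontransgenic mean on each MM array (blue), and 1, Igkv14-111 on replicate 2, was as far above it (red). The share of all probe sets this far from the nontransgenic mean was not computed.

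The number of low segments differed from tumour to tumour. Of the 19 variable segment probe sets, 16, 14, 7, 10, 16 and 15 were at least 4-fold below the nontransgenic mean on MM replicates 1 to 6. In nontransgenic B cells 0 were, and in Eμ-xbp-1s B cells 1 was on replicate 3 and 1 on replicate 4. On these 2 arrays it was Igkv9-120 by probe set 1452536_s_at, at 51.0 and 37.5, where replicates 1, 2 and 5 measured 2033, 1853 and 514. Probe set 1460423_x_at of the same segment measured 1806 and 1417 on these 2 arrays. Its log2 differences from the nontransgenic mean were -0.565 and -0.915, so that the low value was that of 1 probe set. The share of all probe sets at least 4-fold below the nontransgenic mean was not computed for any array. Most of the 19 were brightest on a B cell array, which by itself favours counts below that mean over counts above it. The MM arrays also differed in the marker sums given above, and the part of cell mixture in the counts was not tested. The SD of the 19 differences was 0.199 to 0.473 in nontransgenic, 0.471 to 1.35 in Eμ-xbp-1s and 1.31 to 2.1 in MM arrays. These differences are from the nontransgenic mean, which by itself favours a smaller SD in nontransgenic arrays, so that the groups cannot be ranked by it. Eμ-xbp-1s replicate 3, at 1.35, lay above MM replicate 5, at 1.31.

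A single variable segment stood out above the B cells in 1 tumour. Igkv14-111 measured 883 to 1487 in nontransgenic and 538 to 1396 in Eμ-xbp-1s B cells. In MM it measured 49.6, 4593, 313, 151, 99.7 and 81.5, so that replicate 2 was the brightest of all 16 arrays and the other 5 were below every B cell sample. The gap between MM replicate 2 and the next array, nontransgenic replicate 3, was 1.63 on the log2 scale. No other variable segment had a gap of 1 or more on any MM array. Because of replicate 2 the fall did not pass in limma (log2 fold change -2.31, adjusted p = 0.133), and without replicate 2 it passed with an adjusted p of 0.00285. Replicate 2 was at least 4-fold above the nontransgenic mean here, but under quantile normalization or median scaling it was just under 4-fold, at a count of 0.

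MM replicate 2 was also the array with the most Igha. The 3 Igha probe sets 1421653_a_at, 1425763_x_at and 1429381_x_at measured 8371, 11193 and 11660 there, against 1315 to 3111 in the other 5 MM samples and 1639 to 6096 in all B cells. On the same array the bright Ighm probe sets were at their lowest, 791 and 758. Igha and Igkv14-111 were thus high, and the bright Ighm pair low, in 1 and the same sample. Jchain measured 6796 on this array.

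Igkv19-93 gave a smaller pattern of this kind, picked out after its values were seen. Its brighter probe set 1427856_a_at measured 1835 on MM replicate 3, 65.3 to 290 on the other MM arrays and 384 to 1077 in B cells. The gap to the next array was 0.77 on the log2 scale. The dimmer probe set of this gene, 1427855_at, did not show it, with 26.7 on MM replicate 3 against 43.6 to 199.7 in B cells. MM replicate 3 was also the array with the fewest low variable segments, 7 of 19.

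**Figure D3:**
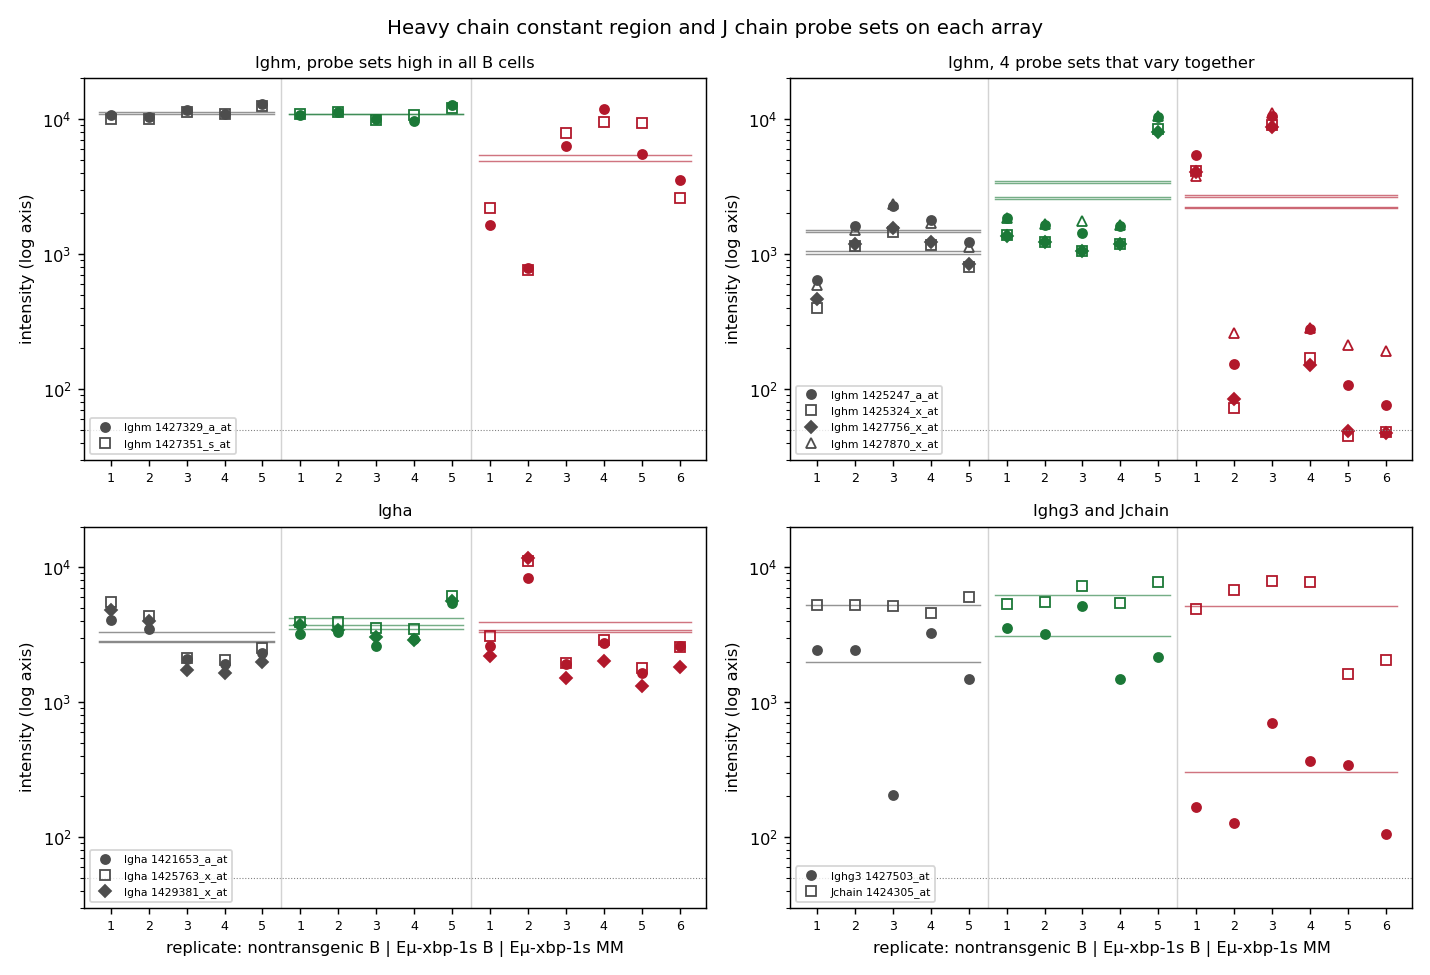
Intensity on each array (log axis) of the bright Ighm probe sets, the 4 Ighm probe sets that varied together, Igha, and Ighg3 with Jchain, with group means as lines and the floor of 50 dotted. The 3 Igha probe sets reach 8371 to 11660 on MM replicate 2, where the bright Ighm pair is at its lowest, and the 4 Ighm probe sets measure 3809 or more on MM replicates 1 and 3 and on Eμ-xbp-1s B cell replicate 5.

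The probe sets annotated to Ighm did not move as 1 gene. The bright pair measured 1651 and 2208 on MM replicate 1, 791 and 758 on replicate 2, 6274 and 7914 on replicate 3, 11782 and 9589 on replicate 4, 5548 and 9394 on replicate 5, and 3514 and 2611 on replicate 6. Replicate 4 lay within the B cell range by 1427329_a_at and just below it by 1427351_s_at, and replicates 1 and 2 were far below it by both. The mean of 1427329_a_at was 4927 ± 3976 (SD, n = 6) in MM, and its log2 fold change against Eμ-xbp-1s B cells, -1.62, did not pass in limma (adjusted p = 0.0833). That of 1427351_s_at, -1.52, did not pass either (adjusted p = 0.116).

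A block of 4 other Ighm probe sets (1425247_a_at, 1425324_x_at, 1427756_x_at and 1427870_x_at) had another order. They measured 3809 to 5372 on MM replicate 1, 8732 to 11004 on MM replicate 3 and 8008 to 10465 on Eμ-xbp-1s B cell replicate 5. On MM replicates 2, 4, 5 and 6 they measured 44.9 to 281, and on the remaining B cell arrays 401 to 2367. So 1 B cell sample and 2 tumours were high, and the other 4 tumours lay below every B cell sample. Across the 16 arrays Pearson's r between members of this block was 0.986 to 0.999, between the 2 bright probe sets 0.971, and from one set to the other 0.292 to 0.392. These are descriptions, since the probe sets may share probes.

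Eμ-xbp-1s B cell replicate 5 thus carried a signal of this block at the height of a tumour. Its variable segments were near the nontransgenic level, with 0 of 19 below and 0 above the nontransgenic mean by 4-fold. Its plasma cell markers, Jchain among them, summed to 12616 and its neutrophil markers to 27512, each the highest such sum of the B cell arrays. The block's rise over nontransgenic B cells, 0.76 to 0.97 on the log2 scale, did not pass in limma (adjusted p = 0.360 to 0.462). Without this array it was 0.23 to 0.41 (adjusted p = 0.554 to 0.753).

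Yet another pattern was that of Ighm probe set 1425385_a_at. It measured 1771, 4900, 6095, 4637 and 4192 in nontransgenic, 4946, 5223, 3172, 3083 and 7191 in Eμ-xbp-1s B cells, and 787, 141, 354, 1622, 312 and 90.4 in MM. Every MM value was below every B cell value, and the log2 fold change against Eμ-xbp-1s B cells was -3.69 ± 0.63 (adjusted p = 0.00417 in limma). The call was lost in 8 of 25 alternatives. On MM replicate 3 this probe set was low where the block of 4 was at its highest. Probe set 1452535_at was also called lower in MM, by -2.93 ± 0.56 on the log2 scale against Eμ-xbp-1s B cells (adjusted p = 0.00778 in limma) and by -2.92 ± 0.47 against nontransgenic B cells (adjusted p = 0.00137). It measured 409 to 1987 in B cells and 47.1 to 491 in MM, with MM replicate 4 inside the B cell range. The remaining 3 Ighm probe sets, 1426196_at, 1427869_at and 1451949_at, were dim, and the highest value among them was 579 for 1427869_at on Eμ-xbp-1s B cell replicate 5. Probe sets with the name Ighm thus differed in their patterns, which transcripts they bound is not known here, and the isotype of a tumour cannot be read from them.

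Ighg3, a γ chain of mouse IgG, was low in each tumour. Probe set 1427503_at measured 2444, 2429, 204, 3279 and 1481 in nontransgenic and 3526, 3217, 5199, 1472 and 2155 in Eμ-xbp-1s B cells. In MM it measured 168, 127, 707, 364, 344 and 105. MM and Eμ-xbp-1s B cells did not overlap, with a log2 fold change of -3.56 ± 0.49 (adjusted p = 0.00137 in limma). Against nontransgenic B cells it was not called, and nontransgenic replicate 3 lay among the tumours. The dimmer Ighg3 probe set 1447998_at measured 138 to 300.5 in nontransgenic and 113 to 167 in Eμ-xbp-1s B cells but 4.75 to 57.3 in MM. It was called lower against both, with a log2 fold change of -1.88 ± 0.20 against nontransgenic B cells (adjusted p = 6.76e-05 in limma). The other Ighg3 probe sets, 1426198_at and 1426199_x_at, were at 59.0 or below on all arrays.

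Jchain lay at the B cell level in 4 of the 6 tumours. It measured 4933, 6796, 7843 and 7721 on MM replicates 1 to 4, within or near the range of the B cell samples. On replicates 5 and 6 it measured 1620 and 2046, below every B cell sample. The log2 fold change against Eμ-xbp-1s B cells was -0.51 ± 0.41 (adjusted p = 0.462 in limma). Over replicates 1 to 3 alone it was 0.05.

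**Figure D4:**
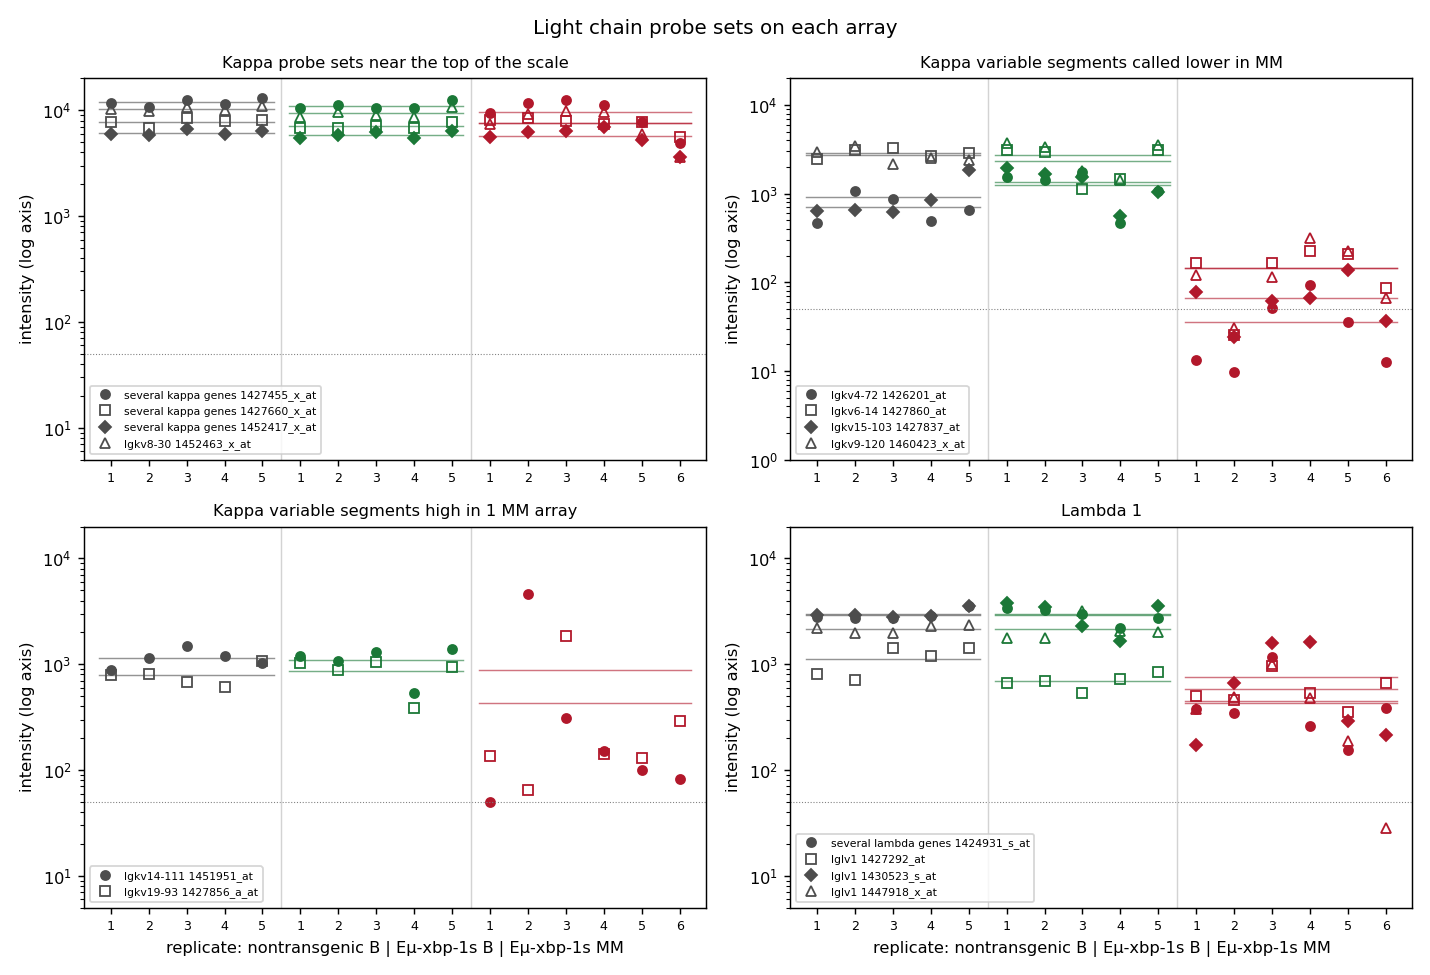
Intensity on each array (log axis) of 4 kappa probe sets near the top of the scale, 4 kappa variable segments called lower in MM, 2 variable segments that are high on 1 MM array, and the lambda probe sets, with group means as lines and the floor of 50 dotted. The kappa probe sets that include the constant region stay between 3627 and 12373 in MM, while Igkv4-72 lies at 92.6 or below.

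The kappa probe sets that include the constant region stayed bright on tumours whose variable segments were low. The 3 probe sets annotated to several kappa genes, the constant region among them, measured 3627 to 12373 in MM, with 0 of 3 called in any comparison. Probe set 1427455_x_at measured 9482, 11705, 12373, 11323, 7677 and 4899 on MM replicates 1 to 6. Replicates 1 to 4 were close to the B cell range of 10400 to 13035, and replicates 5 and 6 were below it. Igkv8-30 by 1452463_x_at, whose suffix marks shared probes, measured 7414, 9234, 9913, 9675, 5944 and 3588 on these arrays. It thus moved like the constant region probe sets, not like the variable segments called lower.

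Lambda 1, the main lambda chain of mice, was called lower in MM by 1 of its 4 probe sets against Eμ-xbp-1s B cells and by 3 of 4 against nontransgenic B cells. Probe set 1424931_s_at, annotated to several lambda 1 genes, fell from 2911 ± 476 in Eμ-xbp-1s B cells to 449 ± 365 in MM, a log2 fold change of -2.98 ± 0.40 (adjusted p = 0.00120 in limma). The highest MM value, 1172 on replicate 3, was below the lowest B cell value, 2193. The 3 Iglv1 probe sets were not called against Eμ-xbp-1s B cells. Of them 1430523_s_at and 1447918_x_at were called lower against nontransgenic B cells, at adjusted p = 0.00814 and 0.00601, and each lost its call in 11 or more of 24 alternatives.

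Genes that work with immunoglobulin were taken from a list of 42, of which 37 were measured and 30 tested. Between the B cell groups 0 passed limma in either direction, where 2.75% of all probe sets tested were called higher and 0.481% lower. Before adjustment 2 lay higher and 12 lower (p under 0.05). In MM against Eμ-xbp-1s B cells 0 were higher and 3 lower, where 1.91% of all probe sets tested were called lower. Before adjustment 1 lay higher and 10 lower (p under 0.05). The 3 were Pou2f2 (Oct-2, which binds the octamer of immunoglobulin promoters), Fcmr (the IgM Fc receptor) and Fcer2a (CD23, the low-affinity IgE receptor). Their adjusted p in limma was 0.00990, 0.00193 and 0.00202, so that Pou2f2 lay just under the threshold. Against nontransgenic B cells 0 were higher and 5 lower, these 3 with Pax5 (the B cell identity factor) and Irf4 (a factor of plasma cell differentiation). Of all probe sets tested 5.65% were called lower there. Before adjustment 1 of the listed genes lay higher and 11 lower. Pou2f2 measured 547 ± 35.3 in nontransgenic, 397 ± 77.8 in Eμ-xbp-1s B cells and 185 ± 52.4 in MM. Pax5 measured 366 ± 110.2, 167 ± 81.5 and 71.8 ± 30.8 in the same order, and Irf4 926 ± 105.0, 663 ± 252 and 232 ± 96.8. For each of the 3 the B cells of transgenic mice lay between the others, although their difference from nontransgenic B cells did not pass.

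Cd79a and Cd79b, the signalling partners of surface immunoglobulin, measured 2777 to 5550 and 2496 to 5076 in Eμ-xbp-1s B cells. In MM Cd79a measured 2649, 2202, 2644, 422, 62.8 and 3346 and Cd79b 1672, 1249, 2163, 148, 37.8 and 1757. Replicate 5 was thus near the floor for both, and replicate 4 was the next lowest. On these arrays erythroid markers summed to 12533 and 15812, against 42 to 136 on the other MM arrays, and neutrophil markers to 60551 and 45640, against 573 to 1514. Their part in the low immunoglobulin values of these arrays was not tested. With both arrays left out, 12 of the 14 probe sets called lower against Eμ-xbp-1s B cells kept their call, Ighv14-2 and Igkv4-68 lost it, and 1 other, Igkv6-20, gained one. In that fit 272 of all 22941 probe sets tested were called lower. Pou2af1, the coactivator of the octamer factors, measured 75.7 on replicate 5 and 1489 to 4314 on the other MM arrays.

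MM replicate 6 stood apart in genes of early B cells. Vpreb1, which with Igll1 forms the surrogate light chain of the pre-B cell receptor, measured 4505 there and 6.96 to 62.0 on the other 15 arrays. Igll1 measured 592 there against 101 to 404 elsewhere, and Vpreb3 1669 against 119 to 631. Rag1, the recombinase that joins the segments, measured 413 against 1.00 to 24.8, whereas Rag2, its partner, measured 29.7, under the floor. All 4 named above the floor were at their highest on this array. It had 15 of 19 variable segments at least 4-fold below the nontransgenic mean, and each of the 3 kappa probe sets that include the constant region was at its lowest of the 16 arrays there.

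**Figure D5:**
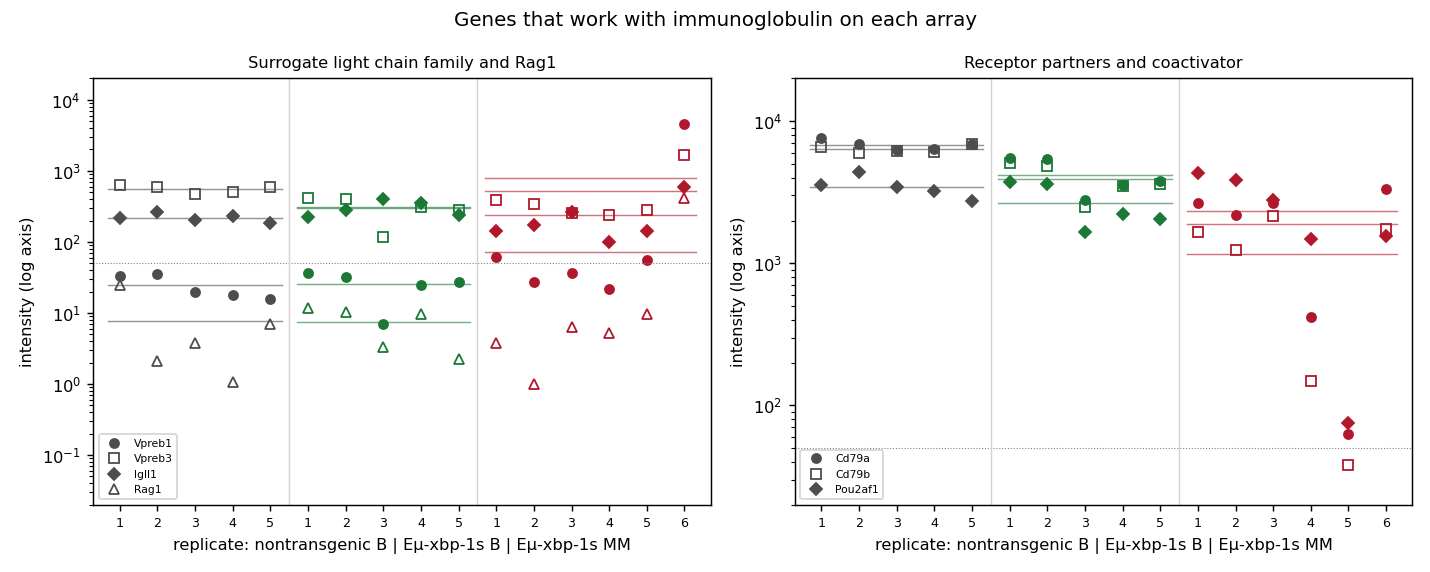
Intensity on each array (log axis) of Vpreb1, Vpreb3, Igll1 and Rag1, and of Cd79a, Cd79b and Pou2af1, with group means as lines and the floor of 50 dotted. Vpreb1 reaches 4505 on MM replicate 6 and 62.0 at most elsewhere, and Cd79a and Cd79b are lowest on MM replicate 5.

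Immunoglobulin variable promoters are known for the octamer, ATGCAAAT or its reverse complement ATTTGCAT, which Oct-1 and Oct-2 bind. Of the 27 member genes, 1 had a promoter in the RefSeq table used here, Jchain, and 35 of the 42 listed genes had one. The windows run from 250 bases before to 50 bases after the start on GRCm38.p6. The octamer on either strand was found in 1.74% of the 32851 windows, and in at least 1 window of 1.97% of the 27025 genes. It was found in 1 of the 35 listed genes, Vpreb3, at 45 bases before the start, and not in the windows of Jchain or Vpreb1. The 3 windows are shown because Jchain lay at the B cell level in most tumours and the others were brightest on MM replicate 6, with the octamer in capitals.
Jchain, chr5:88527848-88528147, minus strand: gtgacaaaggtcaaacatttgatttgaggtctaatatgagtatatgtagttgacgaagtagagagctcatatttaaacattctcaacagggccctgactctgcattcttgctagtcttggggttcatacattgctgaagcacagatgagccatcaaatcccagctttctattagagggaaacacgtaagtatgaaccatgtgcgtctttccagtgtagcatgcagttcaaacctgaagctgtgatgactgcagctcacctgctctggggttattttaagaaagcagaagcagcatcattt
Vpreb3, chr10:75948050-75948349, plus strand: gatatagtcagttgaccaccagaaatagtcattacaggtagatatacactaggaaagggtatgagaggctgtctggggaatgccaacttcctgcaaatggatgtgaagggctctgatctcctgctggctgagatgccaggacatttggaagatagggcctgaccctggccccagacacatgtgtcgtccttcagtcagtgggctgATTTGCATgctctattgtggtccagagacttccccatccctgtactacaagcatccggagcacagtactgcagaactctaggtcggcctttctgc
Vpreb1, chr16:16869206-16869505, minus strand: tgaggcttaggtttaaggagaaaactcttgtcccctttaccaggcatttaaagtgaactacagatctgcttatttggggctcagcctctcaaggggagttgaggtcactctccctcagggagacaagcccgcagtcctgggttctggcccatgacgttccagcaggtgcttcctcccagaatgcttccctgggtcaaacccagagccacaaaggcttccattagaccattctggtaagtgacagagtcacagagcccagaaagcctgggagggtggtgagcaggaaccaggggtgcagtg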

How the data were processed

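The deposited intensities are model-based values of dChip (perfect match minus mismatch), on a linear scale, which the authors computed from Microarray Suite 5.0 cell files after normalising the arrays to the array of median overall intensity. Genes were named by the platform annotation, and all 52 probe sets matched a RefSeq gene. Here values under 50 were set to 50 and log2-transformed, only probe sets with an intensity over 100 in more than 20% of the samples of the 2 groups together entered a comparison, and 64 control probe sets were left out. Each pair of groups was fitted with limma 3.58.1 in R 4.3.3 on all remaining probe sets, with Benjamini-Hochberg adjustment over all of them and a threshold of 0.01; the study's own test was SAM. The small number of arrays, 16 in all, limits the precision of the fits. The fit was tested on simulated data with 200 changed probe sets.

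The probe sets named are all those annotated to a single constant region gene or Jchain, up to 10 variable segments per comparison and direction that passed without overlap of the groups, variable segments with a gap of at least 1 (log2) on an MM array, and passing genes of the list of 42. Probe sets of several genes are given by identifier. The members and lists were chosen with earlier results of these data known. Marker sums use 1 probe set a gene. Equal replicate numbers were checked for pairing by the correlation of deviations from the group means. It was 0.171 to 0.519 in all 5 pairs of the B cell groups, which passes a limit of 0.1, and -0.272 to 0.446 with MM, which does not. No label names pairs of mice, and a pairing was not told apart from a shared order of the replicates. The main fits are unpaired, with the replicate block as an alternative. Alternatives were other floors, filters, scalings, fits and left-out samples. The promoters are from the RefSeq table.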

Additional observations from a re-analysis of the deposited data

Results flagged for a closer look

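In 90 groups of 5 or 6 arrays of the named probe sets, 19 held an array whose distance from its nearest neighbour was large against the range of the group. Chance gives about 1 in 20 for independent groups, but in 5 of the 19 every other array was under the floor of 50, which fixes the distance, and probe sets that varied together count separately, so that these shares cannot be compared. Of the 19, 3 were the Igha probe sets on MM replicate 2, at 8371 (1421653_a_at), 11193 (1425763_x_at) and 11660 (1429381_x_at), where the next MM values were 2746, 3111 and 2189. Another 4 were the Ighm block on Eμ-xbp-1s B cell replicate 5, at 10296 (1425247_a_at), 8436 (1425324_x_at), 8008 (1427756_x_at) and 10465 (1427870_x_at), against 1862, 1384, 1353 and 1836 for the next array of the group. The same B cell sample held Igha 1425763_x_at at 6096, against 3512 to 3934.

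Single B cell samples lay apart on 5 other probe sets. Ighg3 1427503_at was 204 on nontransgenic replicate 3, against 1481 to 3279. Igkv14-111 was 538 on Eμ-xbp-1s replicate 4, against 1078 to 1396, and Igkv15-103 was 1831 on nontransgenic replicate 5, against 627 to 844. Iglv1 was 3572 (1430523_s_at) on nontransgenic replicate 5, against 2766 to 2922, and 3208 (1447918_x_at) on Eμ-xbp-1s replicate 3, against 1764 to 2066. The remaining 6 were low intensities, of 59.0 (Ighg3 1426199_x_at, Eμ-xbp-1s B cell replicate 2), 57.3 (Ighg3 1447998_at, MM replicate 2), 119 (Ighm 1427869_at, MM replicate 3), 54.4 (Ighm 1451949_at, MM replicate 4), 55.9 (Igkv19-93 1427855_at, MM replicate 6) and 92.6 (Igkv4-72, MM replicate 4).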

How the results depend on the processing

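The number of immunoglobulin probe sets called lower in MM than in Eμ-xbp-1s B cells was 14, and 9 with the replicate block, 9 with Eμ-xbp-1s replicates 1 and 2 averaged, 6 with B cell replicates 3 to 5 alone, and 9 to 17 with each sample left out in turn. Against nontransgenic B cells it was 18, and 8 with replicates 3 to 5 alone, 14 with the replicate block and 12 to 20 with each sample left out. It was 10 without the suffixes _s_at and _x_at, which takes probe sets out of the count and leaves the calls of the others as they were. Lower calls over all probe sets tested fell too. Against Eμ-xbp-1s B cells they were 423, and 120 with the replicate block, 150 with the average and 95 with replicates 3 to 5 alone. Against nontransgenic B cells they were 1236, and 309 with replicates 3 to 5 alone and 789 with the replicate block. The count of immunoglobulin probe sets higher in Eμ-xbp-1s than in nontransgenic B cells was 0, and 2 at an adjusted p under 0.05, 2 with replicates 1 and 2 against 3 to 5 as a block, 0 with the replicate block and 0 to 2 with each sample left out. Over all probe sets tested the first 3 of these counts were 567, 1023 and 931. In MM the count of immunoglobulin probe sets called higher was 0 in all of these alternatives. The averaging, the split and the omission of MM replicates 4, 5 and 6 were chosen after seeing the data. The log2 fold change of Jchain in MM against Eμ-xbp-1s B cells, which was not called, turned to 0.049 without MM replicates 4, 5 and 6. In the alternatives run no called log2 fold change turned. Within the B cell replicates 1 and 2 and 3 to 5, the difference of the 3 Igha probe sets had opposite signs. The cause of these shifts was not tested, beyond the fewer samples that an omission leaves. The brightest probe sets lay near the top of the scale and several MM values under the floor, so that differences at both ends are low estimates.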
